A study of Panax japonicus with 15 samples.

Results

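Transcript levels in the pericarp (fruit wall) of Panax japonicus, a medicinal herb of the ginseng genus, were compared between the fruit-colour periods G and P. The comparison covered 58703 of the 462117 transcript clusters in the deposited table, or 42.3% of the 138664 that were tested over the whole study. A transcript cluster entered it when its TPM, a length-corrected share of each library, was above 0 in all 3 libraries of G or of P and at least 1 in 3 of those 6 libraries. At the edge of this rule, the third-highest of the 6 values was 1 TPM for the 206 lowest transcript clusters inside and 0.99 TPM for the 235 highest that passed the first condition and stayed outside.

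The study sequenced pericarp RNA of 5 colour periods, G, P, B, R and Y, with 3 libraries each, to relate colour change during fruit development to gene expression. The pericarp was separated from the seed, frozen and ground before RNA extraction. The labels name no cultivar, genotype, treatment or control, do not spell out the letters and give the periods no order; the letters are kept here without a reading of them. The labels call the 3 libraries of a period biological replicates without saying which plants they came from, so each p-value reflects only the spread among these libraries, which may be technical.

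Fruit colour in flowering plants comes mainly from chlorophylls, carotenoids and anthocyanins. As fruits ripen, chlorophyll is usually broken down while carotenoids or anthocyanins, the latter made by the flavonoid pathway, can build up. Panax species are known above all for their triterpene saponins, the ginsenosides. The files do not pair the Cluster identifiers with gene names or sequences, so no function is given here for any transcript cluster, and the tissue label was not checked against marker genes. One gene can be represented by several transcript clusters that divide its reads, so their number is not a number of genes.

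The P libraries differed among themselves in how many transcript clusters they held. The number above 0 TPM was 97466 in P replicate 1, 130422 in P replicate 2 and 187300 in P replicate 3, against 145724, 172147 and 156264 in the 3 G libraries. Of the 58703 compared, 22.8%, 14.7% and 5.14% were listed at 0 in P replicates 1, 2 and 3, and between 3.57% and 5.80% in the G libraries. The comparison was therefore lopsided before any test, since 17723 transcript clusters passed the rule through G alone and 6057 through P alone, while 34923 were above 0 in all 6 libraries. Read depth is unknown, because TPM keeps none, so counting error cannot be given. In a whole tissue such as this, fewer cells of a type and less RNA per cell cannot be told apart. All values were rescaled by library factors, which lay between 0.843 and 0.871 in P and between 0.940 and 1.00 in G.

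Many transcript clusters differed between G and P, in both directions, and those past the test are referred to as calls. In G, 4373 were higher and 2997 were lower than in P, 7370 in all, or 12.6% of those compared (limma, a linear model with spread shared across transcript clusters, on log2(rescaled TPM + 1), Benjamini-Hochberg adjusted p under 0.05 over all 138664 tested). Over all tested transcript clusters 5.47% were called, 3.22% higher and 2.24% lower. The larger share among the 58703 cannot be read as a result, because the rule itself bears on it. Passing through 1 side only means a 0 on the other side, which favours a difference. The rule also asks for 1 TPM within these 6 libraries, which the test over the whole study does not. Among the 34923 above 0 in all 6 libraries, 10.4% were called, 1952 higher and 1690 lower, and their median difference, G minus P, was -0.01 on the log2 scale. Among the 23780 that were at 0 somewhere in the 6, the median difference was 0.62, against 0.07 over all tested.

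Much of the surplus of higher calls lay in transcript clusters with a 0 on the lower side, 2421 of the higher and 1307 of the lower calls, and the balance among the others turned with the scaling. Of all 7370 calls 59.3% were higher in G, and 68.1% on the TPM as deposited. Of the 3642 calls above 0 in all 6 libraries 53.6% were higher, but 66.6% on the TPM as deposited and 46.7% when the factors came from the 12047 transcript clusters that averaged 10 TPM or more and were above 0 everywhere. The higher count also fell to 2832 without G replicate 2 and to 2899 without G replicate 3. Without P replicate 1 there were 3214 higher and 2279 lower calls, and without P replicate 3 there were 5735 and 3155.

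Most called differences were large. At least 2-fold differences on the log2(rescaled TPM + 1) scale, which understates the change of low values, made up 4130 of the higher and 2878 of the lower calls. At least 4-fold differences made up 2175 and 1622, and at least 16-fold differences 251 and 209. The median size was 1.99 for higher calls, with a middle range from 1.51 to 2.65, and 2.09 for lower calls, with a middle range from 1.61 to 2.83 (log2 scale; median standard error 0.39 in both). Among calls above 0 in all 6 libraries the lower ones were the more numerous at these sizes, with 588 higher and 666 lower at 4-fold and 32 and 52 at 16-fold. Counts by size were not made under the other scalings, which moved the balance of calls above 0 in all 6 libraries. The 3 G values and the 3 P values did not overlap for 4338 of the higher and 2978 of the lower calls, and for 9.46% and 6.36% of all tested transcript clusters in these directions; a call already asks for a difference large against the spread, so nothing is read from this. An exact permutation test of 3 against 3 libraries cannot go below p = 0.10, so the limma model, which pools spread, carries the calls.

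**Figure D1:**
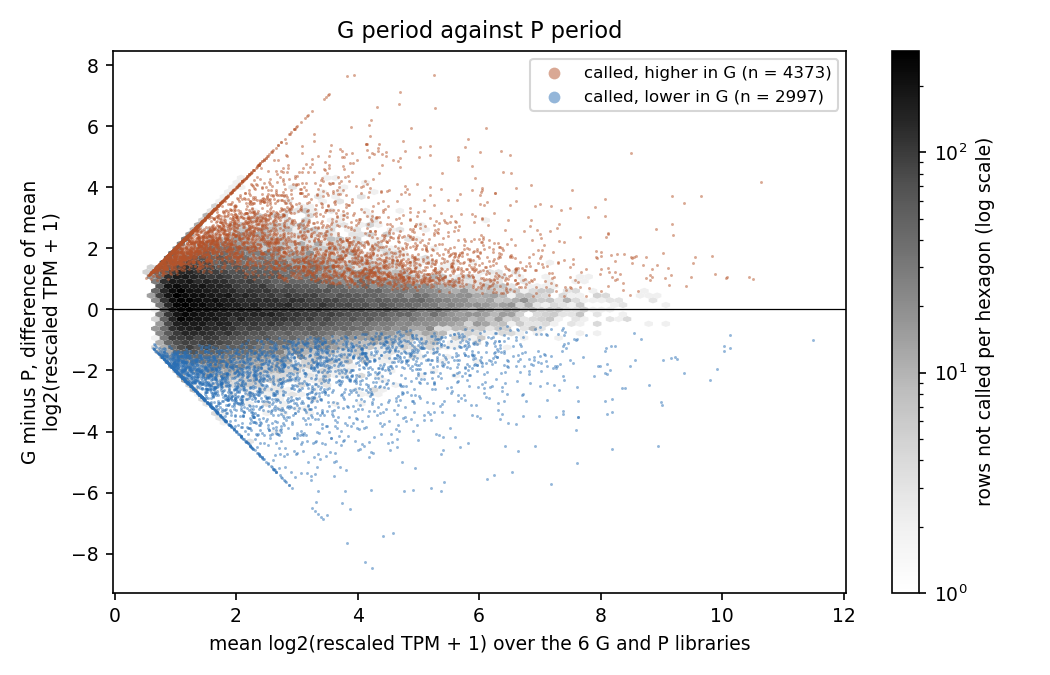
Difference of mean log2(rescaled TPM + 1), G minus P, against the mean over the 6 libraries for the 58703 transcript clusters compared; grey hexagons hold those not called. The 4373 higher (orange) and 2997 lower (blue) calls reach from low to high abundance, and the straight outer edges hold those listed at 0 in all 3 libraries of a side.

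Changed transcript clusters were found at every level of abundance. With a mean of at least 100 TPM over the 6 libraries, 207 were higher and 160 lower out of 868, or 42.3% called. From 10 to 100 TPM there were 1597 higher and 1094 lower out of 12461, and from 1 to 10 TPM 2360 and 1685 out of 42593. Under 1 TPM, 209 were higher and 58 lower out of 2781. The log scale favours calls at high values, so the rising share does not show that abundant transcript clusters changed more often.

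The higher calls together held 19.6% ± 1.23 of TPM in G and 4.54% ± 1.01 in P, and the lower calls held 3.38% ± 0.529 in G and 13.5% ± 0.305 in P (SD, n = 3 each). Since the difference between G and P chose these sets, those shares are a description. B, R and Y are outside that difference, though their spread is pooled into the test. There the higher calls held 6.18% ± 0.489 of TPM in B, 12.0% ± 0.296 in R and 15.4% ± 0.697 in Y. The lower calls held 12.8% ± 1.22 in B, 10.1% ± 0.304 in R and 7.32% ± 0.670 in Y (SD, n = 3 each). For both sets the libraries of B, R and Y did not overlap, with B nearest to P and Y nearest to G.

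Among calls at least 2-fold higher in G, the 2 most abundant transcript clusters stood far higher in G than in every other period. Cluster-64249.114148 stood at 6919.6, 6517 and 6502 TPM in the G libraries and at 151, 222 and 1010.4 TPM in P replicates 1, 2 and 3. In the other periods its mean was 440.1 ± 259.7 TPM in B, 961 ± 219 in R and 1613 ± 196 in Y (SD, n = 3 each), so all 9 of these libraries lay below all G libraries. The difference, G minus P, was 4.18 ± 0.52 on the log2 scale (SE; adjusted p = 0.000285, limma).

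Cluster-64249.121056 showed the same form with less spread. It stood at 3063, 3332 and 2273 TPM in G and at 133, 233 and 221 TPM in P (difference 3.72 ± 0.18 SE, adjusted p = 1.09e-07, limma). Its means in B, R and Y were 320.1 ± 16.9, 490.1 ± 30.1 and 722 ± 93.6 TPM (SD, n = 3 each). The third of the abundant ones, Cluster-64249.124432, differed from both in that R and Y stood at the G level. It had 1889.7, 2190.3 and 1949 TPM in G and 725, 1077 and 887.6 TPM in P (difference 1.00 ± 0.12 SE, adjusted p = 0.000267, limma). Its means were 1039 ± 74.9 TPM in B, 1910.4 ± 113 in R and 2221 ± 103 in Y (SD, n = 3 each), and it was higher in R than in B by 0.85 ± 0.12 (SE; adjusted p = 0.00305, limma) and in Y than in B by 1.08 ± 0.12 (SE; adjusted p = 0.000258, limma).

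Of the 3 most abundant transcript clusters called at least 2-fold lower in G, 1 was called under all 25 alternatives and the others were not. Cluster-64249.126818 stood at 439, 344 and 387 TPM in G and at 2083, 2844 and 859.7 TPM in P (difference -2.32 ± 0.34 SE, adjusted p = 0.00111, limma). Its Y libraries, at 539, 488 and 622 TPM, lay close above G, and its B and R libraries, from 1026 to 2341 TPM, lay with P. Cluster-64249.125422 stood at 2795, 1815 and 1537 TPM in G and at 3477, 4324 and 2906 TPM in P (difference -1.0 ± 0.24 SE, adjusted p = 0.0267, limma), with ranges that nearly touch. Over the 25 alternatives its adjusted p ran from 0.0086 to 0.113 (limma). The call was lost in 11, among them the TPM as deposited (0.06, limma) and leaving out G replicate 2 or 3 or P replicate 1 or 2.

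For Cluster-64249.124825 the G values were 959, 706 and 512 TPM and the P values 1889, 1923 and 931 TPM, so P replicate 3 lay below the highest G library before rescaling. Its difference was -1.27 ± 0.28 (SE; adjusted p = 0.0157, limma). Over the 25 alternatives the adjusted p ran from 0.00124 to 0.0826. The call was lost in 7 of them, without G replicate 2 (0.05) or 3 (0.0713), without P replicate 1 (0.067) or 2 (0.0694), with no variance trend (0.0616) and in both fits on the 6 libraries (0.0808 and 0.0826; limma).

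Among transcript clusters above 0 in all 6 libraries, the largest rises in G took different courses through the other periods. Cluster-64249.139607 stood at 327, 735 and 613 TPM in G and at 2.72, 8.01 and 13.2 TPM in P (difference 5.94 ± 0.54 SE, adjusted p = 2.14e-05, limma). B lay with P, and R and Y lay between P and G, with means of 3.29 ± 2.66 TPM in B, 55.2 ± 13.4 in R and 227 ± 80.3 in Y (SD, n = 3 each). Both differences from B passed the test, at 3.84 ± 0.54 for R minus B (SE; adjusted p = 0.00233, limma) and 5.85 ± 0.54 for Y minus B (SE; adjusted p = 4.92e-05, limma).

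Cluster-64249.26613 followed a similar course with 1 uneven period. It stood at 284, 519.6 and 364 TPM in G, at 7.61, 8.52 and 3.44 TPM in P and at 218, 112 and 111 TPM in Y (G minus P 5.58 ± 0.80 SE, adjusted p = 0.000864, limma). Its R replicates held 66.3, 44.8 and 4.54 TPM, so the third lay with P and B, and R minus B missed the threshold at 3.18 ± 0.80 (SE; adjusted p = 0.0793, limma). Cluster-64249.90883, by contrast, was high in G alone. It stood at 161, 116 and 73.7 TPM there, at 0.39, 3.51 and 1.43 TPM in P and between 2.62 and 5.73 TPM in the 9 libraries of B, R and Y (G minus P 5.42 ± 0.43 SE, adjusted p = 6.46e-06, limma).

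Cluster-64249.122090 was high in G, R and Y together. The G libraries held 245, 263 and 182 TPM and the P libraries 0.03, 6.33 and 17.8 TPM (difference 5.37 ± 0.81 SE, adjusted p = 0.0013, limma). Its means were 28.6 ± 23.4 TPM in B, 157 ± 28.04 in R and 199 ± 39.4 in Y (SD, n = 3 each), but with the wide spread in B and P neither R minus B (2.70 ± 0.81 SE, adjusted p = 0.167, limma) nor Y minus B (3.05 ± 0.81 SE, adjusted p = 0.0653, limma) passed. Cluster-64249.140641 stands for those with B, R and Y all nearer to G than to P on the log2 scale. It held 35.9, 19.0 and 42.5 TPM in G and 0.23, 0.46 and 3.52 TPM in P (difference 3.93 ± 0.48 SE, adjusted p = 0.000248, limma). Its B mean of 8.27 ± 0.545 TPM was still below R, at 23.5 ± 9.39, and Y, at 36.4 ± 8.17 (SD, n = 3 each). Y was higher than B by 1.97 ± 0.48 (SE, adjusted p = 0.0425, limma), but R minus B missed the threshold at 1.30 ± 0.48 (SE, adjusted p = 0.302, limma).

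The largest falls in G included transcript clusters high in P alone and others shared with B, R or Y. Cluster-64249.55412 held 148, 115 and 65.3 TPM in P and between 0.1 and 3.51 TPM in the 12 other libraries, with 0.38, 0.89 and 0.24 TPM in G (difference -6.35 ± 0.51 SE, adjusted p = 7.33e-06, limma). Cluster-64249.133906 held 0.88, 1.25 and 0.25 TPM in G against 83.9, 133 and 72.8 TPM in P (difference -5.96 ± 0.28 SE, adjusted p = 7.09e-08, limma). It was low in G alone, with means of 110.4 ± 26.5 TPM in B, 64.9 ± 12.6 in R and 29.2 ± 3.54 in Y (SD, n = 3 each), and it was lower in Y than in B by -1.87 ± 0.28 on the log2 scale (SE; adjusted p = 0.00199, limma).

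Cluster-64249.125440 was high in P and B only. It stood at 25.6, 43.3 and 71.6 TPM in P, at 52.2, 52.1 and 55.2 TPM in B and at 0.57, 1 and 0.29 TPM in G (G minus P -4.99 ± 0.38 SE, adjusted p = 4.97e-06, limma). Its R mean of 4.69 ± 0.823 TPM and Y mean of 1.90 ± 1.17 TPM (SD, n = 3 each) were lower than B, by -3.27 ± 0.38 (SE; adjusted p = 0.000587, limma) and -4.30 ± 0.38 (SE; adjusted p = 3.41e-05, limma). Cluster-64249.126152 had means of 60.9 ± 6.93 TPM in B, 28.7 ± 8.67 in R and 7.30 ± 2.97 in Y (SD, n = 3 each). Neither R minus B (-1.12 ± 0.80 SE, adjusted p = 0.713, limma) nor Y minus B (-2.97 ± 0.80 SE, adjusted p = 0.0697, limma) passed. Its P libraries spread widely, at 217, 67.7 and 10.01 TPM, against 3.65, 0.44 and 1.02 TPM in G (difference -4.71 ± 0.80 SE, adjusted p = 0.00303, limma).

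Both remaining members of this group were highest in P replicate 1 and high again in Y. Cluster-64249.73117 stood at 652, 199 and 133 TPM in P replicates 1, 2 and 3, at 53.1, 113 and 111 TPM in Y and at 0.43, 0.44 and 2.11 TPM in G (G minus P -7.32 ± 0.72 SE, adjusted p = 4.02e-05, limma). Cluster-64249.111036 stood at 532, 91.4 and 39.2 TPM in P, at 31.1, 68.8 and 86.6 TPM in Y and at 1.36, 1.38 and 1.32 TPM in G, and was listed at 0 in the 3 R libraries (G minus P -5.93 ± 1.03 SE, adjusted p = 0.00341, limma). In B both were uneven, with 76.6, 19.1 and 10.1 TPM for the first and 25.5, 0 and 0.64 TPM for the second.

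**Figure D2:**
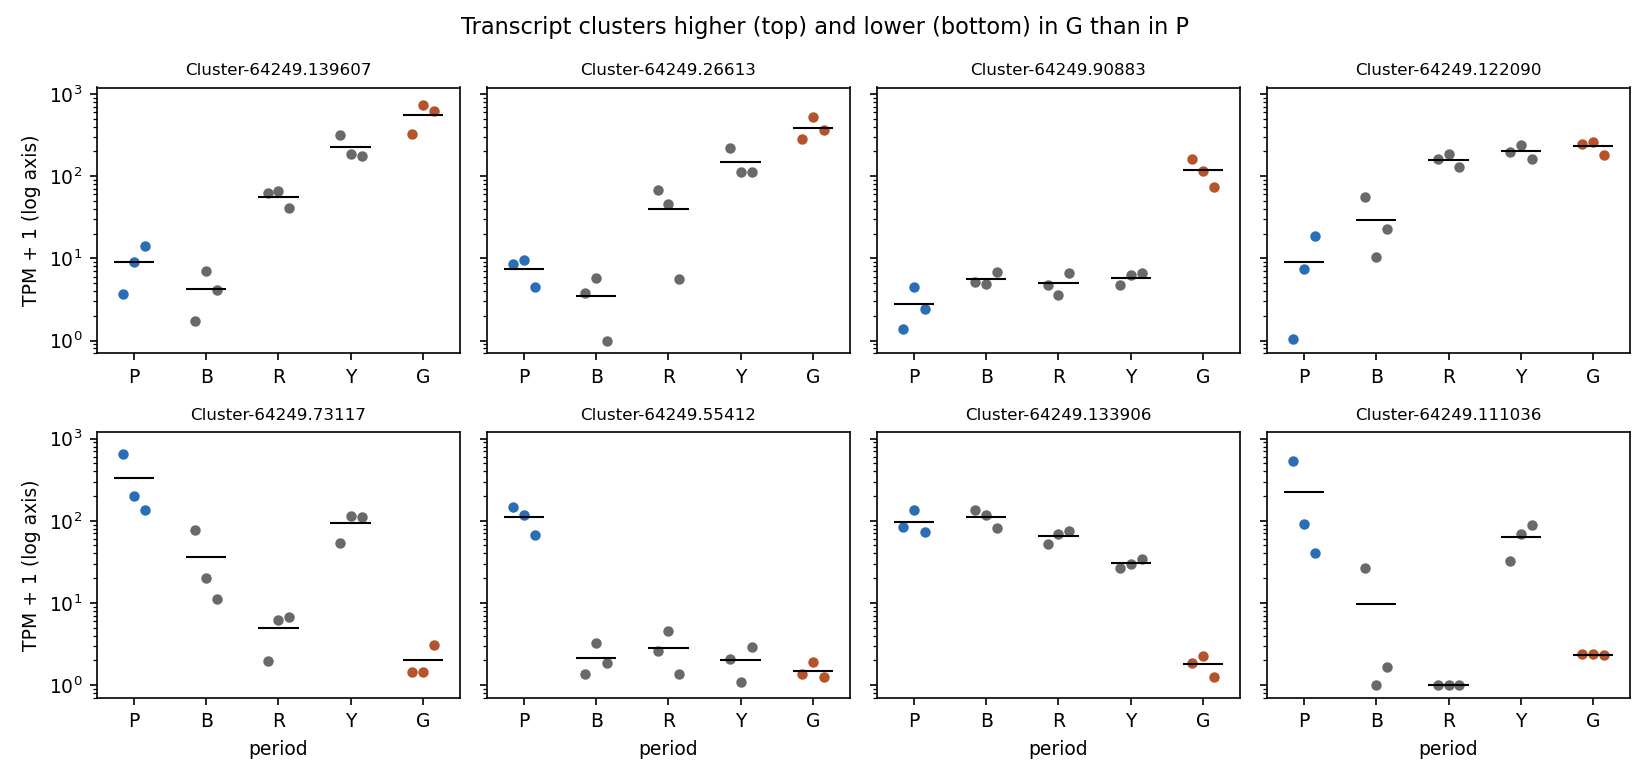
TPM + 1 on a log axis in every library (points) with the period mean (bars, n = 3) for the 4 transcript clusters with the largest rise (top row) and the 4 with the largest fall (bottom row) in G among calls above 0 in all 6 libraries. No overlap of G (orange) with P (blue) and a mean of at least 10 TPM on the higher side were conditions of the choice. The course of B, R and Y (grey) varies among the panels.

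Some of the changed transcript clusters were listed at 0 throughout the lower side. There were 939 higher calls at 0 in all P libraries and 427 lower calls at 0 in all G libraries, or 21.5% and 14.2% of the calls. Most were low, with a median of 3.90 TPM in G and 5.16 TPM in P on the side where they were found, and 156 and 113 reached a mean of 10 TPM there. Of the 939, 399 were also listed at 0 in all B libraries, 288 in R and 216 in Y, and 110 in all 9 of these. Of the 427, 61 were listed at 0 in B, 100 in R and 142 in Y, and 28 in all 9. The same counts over all compared transcript clusters were not computed, so nothing is read from these. A value of 0 in a table without counts does not show that a transcript was missing, and P replicates 1 and 2, which had the fewest transcript clusters above 0, held a 0 for 50.7% and 43.0% of the higher calls against 24.6% in P replicate 3.

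The strongest of these were abundant on the side where they were found, and since they entered through that side only, their values are given as a description. Cluster-64249.310504 stood at 177, 186 and 218 TPM in G, was listed at 0 in the 6 libraries of P and B, and stood between 18.8 and 164 TPM in R and Y. Cluster-64249.97162 stood at 219, 124 and 76.4 TPM in G, at 0 in P and at no more than 3.6 TPM in B, R and Y. Cluster-64249.145598 stood at 135, 90.6 and 159 TPM in G and at 0 in P and in B replicate 3, yet at 57.9 and 109 TPM in the other B libraries.

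On the other side, Cluster-64249.123961 was listed at 0 in G and stood at 135, 493 and 427 TPM in P, with 355 to 551 TPM in B, 89.5 to 152 TPM in R and 12.8 to 101 TPM in Y. Cluster-64249.209477 was also at 0 in G, stood at 127, 408 and 349 TPM in P and was found in all 9 libraries of B, R and Y, between 13.2 and 301 TPM. Cluster-64249.104926 was carried mainly by 1 library, with 12.6, 224 and 1707 TPM in P replicates 1, 2 and 3, at 0 in G and R and at no more than 0.77 TPM in B and Y.

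Taking each set as a whole, B lay near P, Y lay nearer to G, and R lay between them. For each transcript cluster the B, R and Y means were placed on the line from the P mean, at 0, to the G mean, at 1. Among higher calls the median position was 0.13 for B, 0.47 for R and 0.65 for Y, against 0.27, 0.49 and 0.62 over all compared transcript clusters with a G mean above the P mean. Among lower calls it was 0.22, 0.49 and 0.72, against 0.34, 0.58 and 0.74 over all compared with a G mean below the P mean. By these medians the higher calls lay apart from this background mainly in B. The lower calls lay nearer to P than the background did in both B and R, and near it in Y. The midpoint was passed towards G in 15.1% of the higher calls for B, 47.3% for R and 61.6% for Y, and in 30.1%, 49.5% and 70.1% of the lower calls, where all compared of the same sign gave 39.4%, 49.5% and 56.2%, and 43.3%, 53.7% and 61.9%. For B the first of these was 9.38% among calls above 0 in all 6 libraries, 31.8% without P replicate 3 and 25.5% with a pseudocount of 0.1, and the R share of the higher calls was 56.2% on the TPM as deposited.

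The median level in single libraries gave the same order. On the log2(rescaled TPM + 1) scale, the median over the 4373 higher calls lay between 1.83 and 1.89 in the B libraries, between 2.58 and 2.67 in R and between 2.91 and 3.03 in Y. Over the 2997 lower calls it lay between 3.34 and 3.36 in B, between 2.68 and 2.71 in R and between 2.17 and 2.33 in Y. The 3 periods did not overlap in either set. In P the median over the higher calls was 0, 0.89 and 1.56 in replicates 1, 2 and 3, a wider spread than in any other period, and over those above 0 in all 6 libraries it was 3.21, 3.25 and 3.52.

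**Figure D3:**
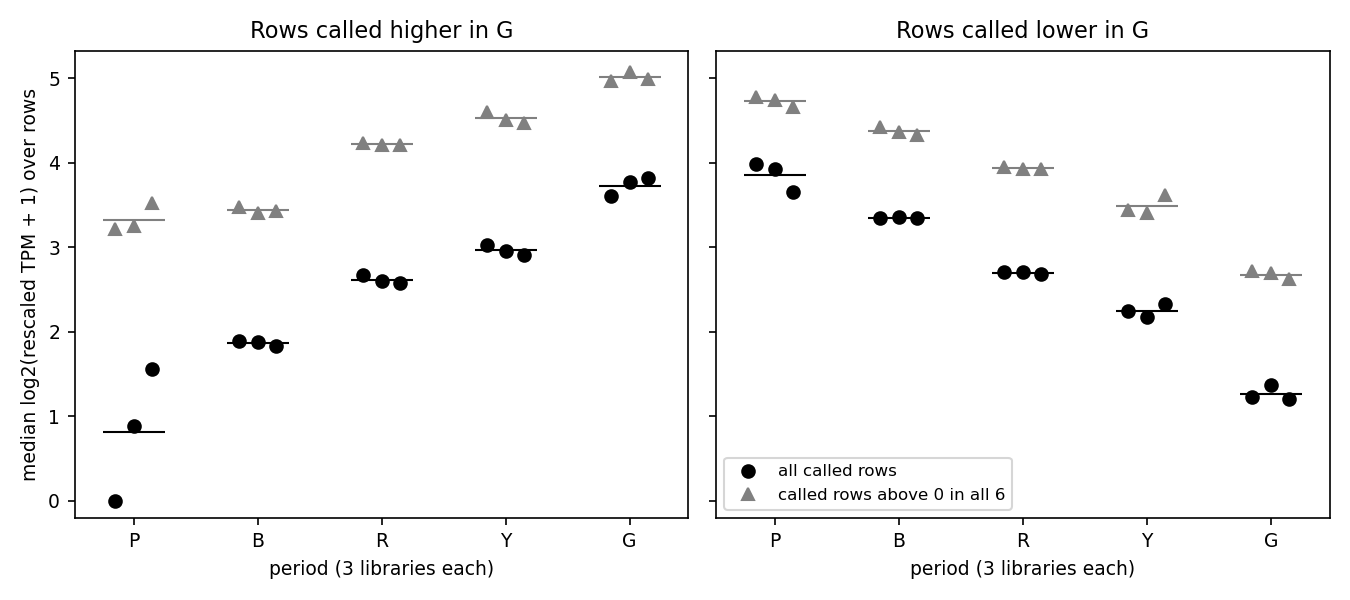
Median log2(rescaled TPM + 1) in each library over the transcript clusters called higher (left) and lower (right) in G than in P, for all calls (circles) and for those above 0 in all 6 libraries (triangles); bars are means of the 3 libraries. The G minus P difference and a spread pooled over all 15 libraries chose the rows. B, R and Y, whose levels are not part of that difference, lie in the order B, R, Y from the P side to the G side in both panels.

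The changed transcript clusters divided into a few main courses. Among higher calls, all 3 of B, R and Y lay on the P side of the midpoint for 1454, or 33.2%, so that G stood alone. R and Y lay with G and B with P for 1431, or 32.7%, Y alone lay with G for 707, or 16.2%, and all 3 lay with G, leaving P alone, for 468, or 10.7%. Among all compared transcript clusters with a G mean above the P mean, called or not, these shares were 25.5%, 17.5%, 12.3% and 21.0%. Among lower calls the same 4 courses were nearly even, at 701, 672, 641 and 671, or 23.4%, 22.4%, 21.4% and 22.4%, against 21.5%, 17.1%, 12.9% and 26.1% of all compared with a G mean below the P mean.

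**Figure D4:**
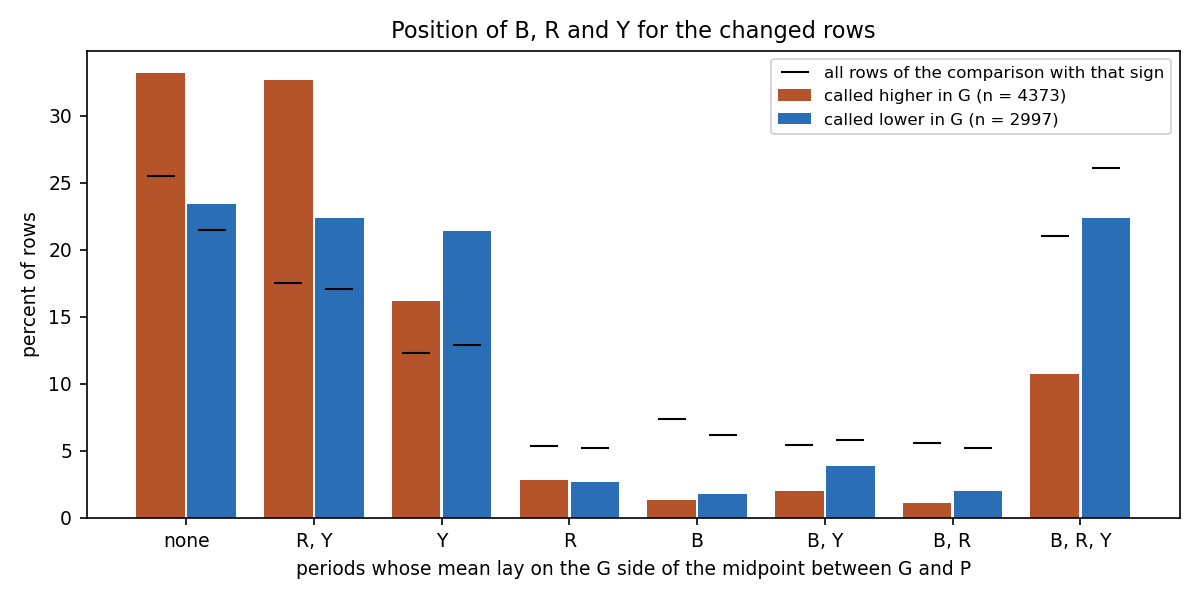
Percent of the higher (orange, n = 4373) and lower (blue, n = 2997) calls by which of B, R and Y had a mean on the G side of the midpoint between G and P; black dashes give the same percent over all compared transcript clusters with that sign of the difference. R and Y together with G reach 32.7% of the higher and 22.4% of the lower calls.

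Among abundant transcript clusters the courses were less even. With a mean of at least 100 TPM, R and Y lay with G and B with P for 115 of the 207 higher calls, or 55.6%, but for 9 of the 160 lower calls, or 5.62%. G stood alone below the other periods for 58 of these lower calls, or 36.2%, and alone above them for 39 of the higher calls, or 18.8%. These shares describe the calls and carry no test, and the same shares over all compared transcript clusters of this abundance were not computed. Sorted by mean from low to high, the most frequent full order among the higher calls was P, B, R, Y, G, for 1197 or 27.4%. Its exact reverse, G, Y, R, B, P, was the most frequent among the lower calls, for 693 or 23.1%. P and G were themselves the lowest and highest of the 5 means in 54.7% of the higher calls and the reverse in 50.8% of the lower calls. The calls were chosen by a large difference between G and P, which favours these periods as the extremes. Shares of the orders and extremes over all compared were not computed, so nothing is read from them.

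The contrasts among B, R and Y use no G or P library in their differences. They are not independent of the choice of the changed transcript clusters, because the spread pooled over all 15 libraries entered both. Where transcript clusters higher in G than in P were also called between B and R or Y, nearly all were lower in B. Among the 4373 higher calls, 617 were higher and 2 lower in R than in B, and 1117 were higher and 5 lower in Y than in B (limma, adjusted p under 0.05 over all tested). Among all 138664 tested, 0.967% were higher and 0.379% lower in R than in B, and 1.74% and 1.15% in Y than in B. The 617 were 14.1% of the higher calls and 46.0% of all transcript clusters higher in R than in B, and the 1117 were 25.5% and 46.3% in the same way. R against B and Y against B share the B libraries, and each is given for itself.

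Among the 2997 lower calls the called directions were the other way about. There, 212 were lower and 23 higher in R than in B, and 725 were lower and 10 higher in Y than in B. The 212 were 7.07% of the lower calls and 40.3% of all transcript clusters lower in R than in B, and the 725 were 24.2% and 45.6% in the same way. The median difference over the higher calls was 0.47 for R minus B and 0.77 for Y minus B on the log2 scale, and over the lower calls -0.44 and -0.77. It was -0.01 and 0 over the 51333 compared but not called, and -0.01 and -0.03 over all tested. The spread is pooled over all 15 libraries, so a transcript cluster with a small spread is called more easily in every contrast.

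**Figure D5:**
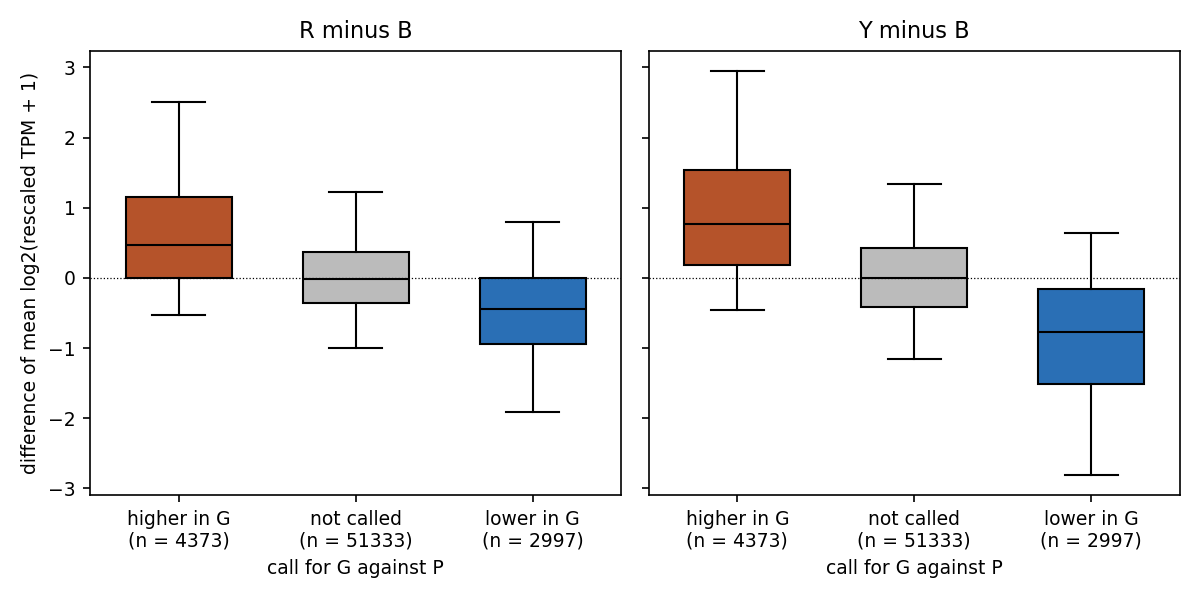
Differences of mean log2(rescaled TPM + 1) for R minus B (left) and Y minus B (right) in transcript clusters called higher, not called or called lower in G than in P; boxes span the middle range with the median, whiskers the 5th to 95th percentile. The medians are 0.47, -0.01 and -0.44 for R minus B and 0.77, 0 and -0.77 for Y minus B.

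These counts moved when 1 library was left out, and in each of the 15 omissions the larger direction stayed the larger. Without P replicate 3 the 617 rose to 744, the 1117 to 1308 and the 725 to 769, while leaving out single B, R or Y libraries gave the lowest values. For the 617, leaving out B replicate 2 gave 389 and B replicate 3 gave 400; leaving out R replicate 1, 2 or 3 gave 339, 365 or 384. For the 212, the same 5 omissions gave 75, 86, 80, 77 and 102, and a pseudocount of 0.1 gave 108. The 1117 became 676 and 734 without Y replicates 1 and 2, and the 725 became 450 without B replicate 2 and 461 and 441 without Y replicates 1 and 2. The counts in the smaller direction were highest without B replicate 1, at 9 beside 672 and 48 beside 183 for R against B and at 19 beside 1119 and 32 beside 654 for Y against B.

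In the most abundant class the calls of R and Y against B are given as a description. Shares over all tested transcript clusters of this abundance were not computed, and the log scale favours calls at high values. Over all 138664 tested, at any abundance, 0.967% were higher and 0.379% lower in R than in B. For Y against B these shares were 1.74% and 1.15%. With a mean of at least 100 TPM, 83 of the 207 higher calls were higher in R than in B and 0 were lower (134 and 3 at an unadjusted p under 0.05, limma). Of the 160 lower calls in that class, 14 were lower and 9 higher in R than in B (43 and 22 at an unadjusted p under 0.05, limma). Y differed from B more plainly, with 121 of the 207 higher and 1 lower, and with 49 of the 160 lower and 0 higher (73 and 15 at an unadjusted p under 0.05, limma).

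Few of the changed transcript clusters were called between R and Y. Among the higher calls 18 were higher and 2 lower in Y than in R, and among the lower calls 50 were lower and 3 higher (limma, adjusted p under 0.05). As shares, the 18 made up 0.412% of the higher calls and 13% of all transcript clusters higher in Y than in R. The 50 made up 1.67% of the lower calls and 34.2% of all transcript clusters lower in Y than in R. Over all tested, 0.0995% were higher and 0.105% lower. The 18 ranged from 5 without Y replicate 1 to 23 with 1 library left out, and the 50 from 21 without R replicate 2 to 55. The median difference, Y minus R, was 0.24 over the higher and -0.36 over the lower calls on the log2 scale.

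Some of the most abundant transcript clusters were not called. Cluster-64249.125924, the most abundant of these, stood at 2142, 2792 and 2149 TPM in G and at 0, 6.93 and 2393 TPM in P replicates 1, 2 and 3, so that P replicate 3 alone lay at the G level (difference 6.37 ± 1.87 SE, adjusted p = 0.0678, limma). Without P replicate 3 its adjusted p was 4.28e-06, and without P replicate 1 it was 0.208 (limma). Its Y libraries held 2411 to 2604 TPM and its B libraries 55.3 to 80.5 TPM. Cluster-64249.127367, at 963, 1527 and 1128 TPM in G and 1478, 1089 and 1420.2 TPM in P, overlapped between the periods (difference -0.33 ± 0.20 SE, adjusted p = 0.416, limma). Cluster-64249.126698 stood at 1660.0, 1410.3 and 1202 TPM in G and at 776, 1027 and 1180.1 TPM in P, and overlapped after rescaling (difference 0.35 ± 0.17 SE, adjusted p = 0.296, limma).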

How the data were processed

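RNA was measured in 15 pericarp libraries. The authors' deposited table holds TPM, per its name and its columns, which sum to between 999997 and 1000003; no step before it is given in the sources used here, and the submitters' processing notes list only the mouse builds GRCm38 and mm10. All 15 columns matched a library by title.

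Values were divided by median-ratio factors from the 33508 transcript clusters never listed at 0 and transformed to log2(TPM + 1). The 138664 with at least 1 TPM in at least 3 libraries were fitted with limma 3.58.1 in R 4.3.3 (5 period means, 10 residual degrees of freedom, a variance prior following mean expression). Contrasts were adjusted by Benjamini-Hochberg over all tested, with a call at 0.05. The fit was tested on simulated data. TPM is printed as deposited; differences are on the rescaled log2 scale.

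The named transcript clusters follow a rule by size, zeros, abundance and course. In each direction these were the 4 largest differences without zeros or overlap and the 3 largest at 0 on 1 side. To these were added the 3 most abundant calls of at least 2-fold and 1 without zeros for each of the 4 most frequent courses. The 4 largest and those for the courses had a mean of at least 10 TPM on the higher side. Those at 0 on 1 side had at least 10 TPM in each library of the other. The 3 most abundant not called were taken in either direction. The comparison and rule were chosen with earlier results of these data known. Alternatives covered scaling, pseudocount, filter, block, trend, weights, a fit on 6 libraries and each library left out. Tables were drawn with Python 3.11.15 and matplotlib 3.10.9.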

Additional observations from a re-analysis of the deposited data

How the results depend on the processing

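The G against P calls (all, higher, lower) numbered 4530, 2617 and 1913 with no filter and 4363, 2574 and 1789 where only averages of 10 TPM or more were kept; higher calls numbered 2892 with library weights. The filter at averages of 10 TPM or more tested fewer transcript clusters. No cause of these moves was tested. Leaving out 1 library gave 5061 to 8890 calls in all, 2832 to 5735 higher and 2162 to 3155 lower. Of the calls above 0 in all 6 libraries, 46.7% were higher with factors from averages of 10 TPM or more, which turned the balance, as did leaving out G replicate 2; the leave-outs gave 49.4% to 56.7%. Calls of R against B ran from 339 to 744 (higher, among higher in G) and from 75 to 227 (lower, among lower in G) over the leave-outs, and of Y against B from 676 to 1308 and from 441 to 769; a pseudocount of 0.1 gave 108 for R against B lower. B passed the midpoint towards G in 11% to 31.8% of higher calls over the leave-outs and in 25.5% with a pseudocount of 0.1. Same-numbered G and P libraries deviated with correlations of 0.10, 0 and 0.05. With 3 libraries a side, such values cannot decide whether the numbers pair them. G replicates 1 and 3 were closest to the P library of their own number, and G replicate 2 to P replicate 3. With the replicate number as a block 6474 were called, 3818 higher and 2656 lower. Of 650 values for the 26 named transcript clusters under 25 alternatives, 630 kept their side of the threshold, 18 lost it, 2 gained it and 0 changed direction. TPM keeps no depth, so low values have an unknown counting error.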
